A study of Homo sapiens with 8 samples.

Results

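The 40 genes described here encode proteins that build ribosomes in the nucleolus, and they were given as a list of gene symbols. Every probe whose symbol in the platform annotation was on that list was taken. This gave 62 probes of 39 genes, out of 30113 probes of 20046 genes that carry 1 gene symbol. WDR43 had no probe with that name here, so its RNA was not analysed, and it enters only the promoter counts below. Of the 39 genes, 38 had a probe detected (detection p under 0.01) on at least 2 of the 8 arrays and were tested among 11218 genes. NPM1, which encodes the nucleolar chaperone nucleophosmin, was the gene left untested, because its only named probe was detected on 0 of 8 arrays. The measurements came from 2 human ovarian carcinoma cell lines on Illumina beadchips, which read labelled RNA by the brightness of beads that carry probes. The groups were SKOV3 cells with 10 µM lovastatin, SKOV3 cells with DMSO, OVCAR5 cells with 10 µM lovastatin and OVCAR5 cells with DMSO. Each group had 2 arrays and each treatment lasted 48 h in RPMI-1640 medium with fetal calf serum. Lovastatin blocks the mevalonate pathway at HMG-CoA reductase, and DMSO is its solvent. Each line is 1 cultured line, and nothing in the labels shows whether replicate arrays stem from separate cultures, so the p-values measure only the spread between these arrays, which may be technical.

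A ribosome begins as a long precursor RNA that RNA polymerase I copies from the ribosomal DNA inside the nucleolus. Small nucleolar ribonucleoproteins (snoRNPs) then modify and guide the cutting of that precursor: box C/D particles add methyl groups and box H/ACA particles make pseudouridine. Assembly factors fold and trim the 2 subunits, the small one through a large particle called the small subunit processome, the large one through complexes such as that of PES1, BOP1 and WDR12. Many of these genes are known targets of the transcription factor MYC, and growing carcinoma cells express them strongly.

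Of the 47323 probes 15370 to 17231 were detected per array, and replicate arrays had correlations of 0.988 to 0.994 across genes, although genes are no independent replicates. Over the 38 members the log2 difference between the 2 arrays had an SD of 0.311 in SKOV3 lovastatin, 0.204 in SKOV3 DMSO, 0.163 in OVCAR5 lovastatin and 0.146 in OVCAR5 DMSO. Of 8 epithelial and Muellerian markers, EPCAM, KRT8, KRT18 and PAX8 were detected on both arrays of every group, KRT7 and KRT19 in SKOV3 only by that count, and CDH1 and MUC16 in no group. Of 5 fibroblast markers, COL1A1 was detected on both arrays of each SKOV3 group, DCN of SKOV3 lovastatin and LUM of SKOV3 DMSO, and none of an OVCAR5 group. Of 4 leukocyte markers with a probe none was detected on both arrays of a SKOV3 group, CD14 and CSF1R were in OVCAR5 lovastatin and CD14 in OVCAR5 DMSO, and PTPRC in no group. Levels are normalized log2 intensities, and changes are log2 fold changes ± standard error, lovastatin minus DMSO, with n = 2 arrays per group. Adjusted p-values are limma's after Benjamini-Hochberg adjustment over all 11218 genes, and a gene is called at an adjusted p under 0.05. An array reads a gene's share of the labelled RNA. Less of a gene's RNA per cell thus cannot be told apart from more of the other RNA, or from fewer of the cells that express it.

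The promoters of these genes were read from RefSeq sequences of GRCh38.p14, which held 42 promoters of 34 of the 40 genes. RRS1, BOP1, NOP58, NOLC1, RRP12 and RRP1B had no promoter there, so the motif was not searched in them. Each window runs from 250 bases before to 50 bases after a start site. The motif searched was CACGTG, the E-box that MYC binds with its partner MAX; it is its own reverse complement, so both strands are read at once. It lay in 15 of the 42 promoters (35.7%), against 7.26% of all 35116 promoters of the table and 9.35% of the 13123 promoters of genes tested here. Counted by gene, 15 of 34 members (44.1%) had it in a promoter, against 12.7% of 9056 tested genes with a promoter. The 34 include WDR43, which had the motif, and NPM1, which had not, although the RNA of neither was tested. These are counts of letters in a window, and no test was made. Among the members lower under lovastatin in both lines, 9 of 18 with a promoter had the motif, and among those called lower in SKOV3 alone it was 2 of 9. The first of these counts includes UTP20, whose probe no SKOV3 array detected. The matching shares over all genes with these calls were not counted, and a relation between motif and change was not tested. The 3 members with the motif and the lowest change in SKOV3 (BYSL, NOP2 and FBL) are shown, with RRP9, which went up in SKOV3, and EMG1, the member without the motif that had the lowest SKOV3 change of those with a promoter here. Capitals mark CACGTG, and each is given 5′ to 3′ along its gene.
BYSL (chr6:41921249-41921548, plus strand): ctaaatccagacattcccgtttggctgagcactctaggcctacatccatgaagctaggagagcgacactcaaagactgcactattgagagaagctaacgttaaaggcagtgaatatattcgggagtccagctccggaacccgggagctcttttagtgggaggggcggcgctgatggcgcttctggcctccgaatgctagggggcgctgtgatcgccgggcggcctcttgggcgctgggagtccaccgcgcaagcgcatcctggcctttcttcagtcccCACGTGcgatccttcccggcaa
NOP2 (chr12:6568242-6568541, minus strand): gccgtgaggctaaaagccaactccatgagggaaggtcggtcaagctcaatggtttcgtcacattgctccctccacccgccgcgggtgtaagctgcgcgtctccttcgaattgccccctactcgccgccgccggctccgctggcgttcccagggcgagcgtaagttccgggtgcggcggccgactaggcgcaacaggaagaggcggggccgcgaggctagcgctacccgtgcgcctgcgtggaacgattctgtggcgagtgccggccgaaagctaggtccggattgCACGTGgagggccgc
FBL (chr19:39846330-39846629, minus strand): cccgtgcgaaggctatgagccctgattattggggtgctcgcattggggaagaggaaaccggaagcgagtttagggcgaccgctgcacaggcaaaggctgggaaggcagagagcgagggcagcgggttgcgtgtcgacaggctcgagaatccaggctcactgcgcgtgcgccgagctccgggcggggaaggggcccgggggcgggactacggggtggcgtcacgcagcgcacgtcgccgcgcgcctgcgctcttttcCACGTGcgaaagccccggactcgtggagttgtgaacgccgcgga
RRP9 (chr3:51941855-51942154, minus strand): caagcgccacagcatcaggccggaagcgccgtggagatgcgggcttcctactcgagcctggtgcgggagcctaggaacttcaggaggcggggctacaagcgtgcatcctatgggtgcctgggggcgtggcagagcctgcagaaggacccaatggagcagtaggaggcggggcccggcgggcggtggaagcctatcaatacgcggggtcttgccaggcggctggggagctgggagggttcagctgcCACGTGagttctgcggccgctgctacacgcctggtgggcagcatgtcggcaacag
EMG1 (chr12:6970663-6970962, plus strand): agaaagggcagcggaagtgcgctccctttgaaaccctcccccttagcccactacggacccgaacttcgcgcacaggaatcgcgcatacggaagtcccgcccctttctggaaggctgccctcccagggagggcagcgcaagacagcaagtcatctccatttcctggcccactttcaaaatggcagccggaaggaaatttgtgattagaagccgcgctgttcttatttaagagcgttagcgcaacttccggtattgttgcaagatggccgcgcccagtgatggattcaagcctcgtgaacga
The first base of the motif lay at position 29 in BYSL, 36 in NOP2 and 7 in FBL, counted from the start site as 1, and 5 bases before the start site (position -5) in RRP9.

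The first comparison asked what 48 h of lovastatin did to these genes in SKOV3. Of the 38 tested members 33 fell and 1 rose, while 23.9% of all tested genes fell and 26.6% rose (50.5% called in either direction). The median change of the members was -0.82, against 0.03 over all genes. At least 2-fold falls were called for 14 members, against 8.50% of all genes, and the 1 gene that rose, RRP9, also passed 2-fold (9.75% of all genes rose that far). In 35 members both lovastatin arrays lay under both DMSO arrays, which was so for 34.9% of all genes (73.2% had groups apart in either direction). WDR74 and NOP10, with arrays that overlapped, and POLR1B and MYBBP1A, with lower arrays that missed the threshold, were the 4 members not called. Of the 34 calls, those of DDX21, GAR1, IMP3, IMP4, LYAR, NOB1, POLR1A, POLR1C, RRP12, TSR1 and UTP20 were each lost under at least 1 alternative setting.

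In OVCAR5 most members also fell, with a smaller median. There 24 of 38 fell and 0 rose, while 9.29% of all genes fell and 13.5% rose (22.8% called). The median change was -0.54, against 0.01 over all genes. A called fall of at least 2-fold was found for 3 members, RRP9, MYBBP1A and NOP14, while 1.53% of all genes fell and 3.89% rose that far. Both lovastatin arrays lay under both DMSO arrays in 36 members, as they did for 31.8% of all genes (67.0% apart in either direction). The leukocyte markers CD14 and CSF1R rose in OVCAR5 with lovastatin, CD14 by 0.54 ± 0.13 on the log2 scale (adjusted p = 0.017) and CSF1R at least 2.53-fold (adjusted p = 0.00024). The summed normalized intensity of that marker list was 339 to 343 with lovastatin and 235 to 237 with DMSO in OVCAR5, and 184 to 187 with lovastatin and 182 to 185 with DMSO in SKOV3. PTPRC was not detected on both arrays of any group, and the part of these markers in the members' fall was not tested. The count of falls was lower by a factor above 1.5 when any 1 of the 4 OVCAR5 arrays was left out. The count of calls over all genes was also lower in these fits. The members' median change was then -0.58 to -0.51. When arrays were scaled to a common median 13 members fell. Calls over all genes in either direction were then 2115, against 2558 in the main fit. The OVCAR5 calls of BYSL, DDX10, DDX21, DKC1, EMG1, GAR1, IMP4, NIP7, NOP2, PES1, POLR1C, RRP1, RRP12, RRP1B, TSR1 and UTP4 were each lost under at least 1 alternative setting. In both lines together, 22 members fell in each (5.80% of all genes did so). Another 11 were called lower in SKOV3 alone (17.3% of all genes), MYBBP1A in OVCAR5 alone (2.87%), and 1 rose in SKOV3 and fell in OVCAR5 (0.615%). Of the 11, IMP3, NCL, NOB1, NOP56, POLR1A and WDR12 gained an OVCAR5 call under at least 1 alternative setting. MYBBP1A likewise gained a SKOV3 call. These counts rest on 1 spread per gene, shared by the 4 groups. With each line's 4 arrays fitted alone, 24 members fell in SKOV3 and 25 in OVCAR5. The larger number of falls in SKOV3 was thus not seen there, while the medians were -0.81 in SKOV3 and -0.56 in OVCAR5. A call in 1 line alone therefore does not show a line difference, which is tested below.

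**Figure D1:**
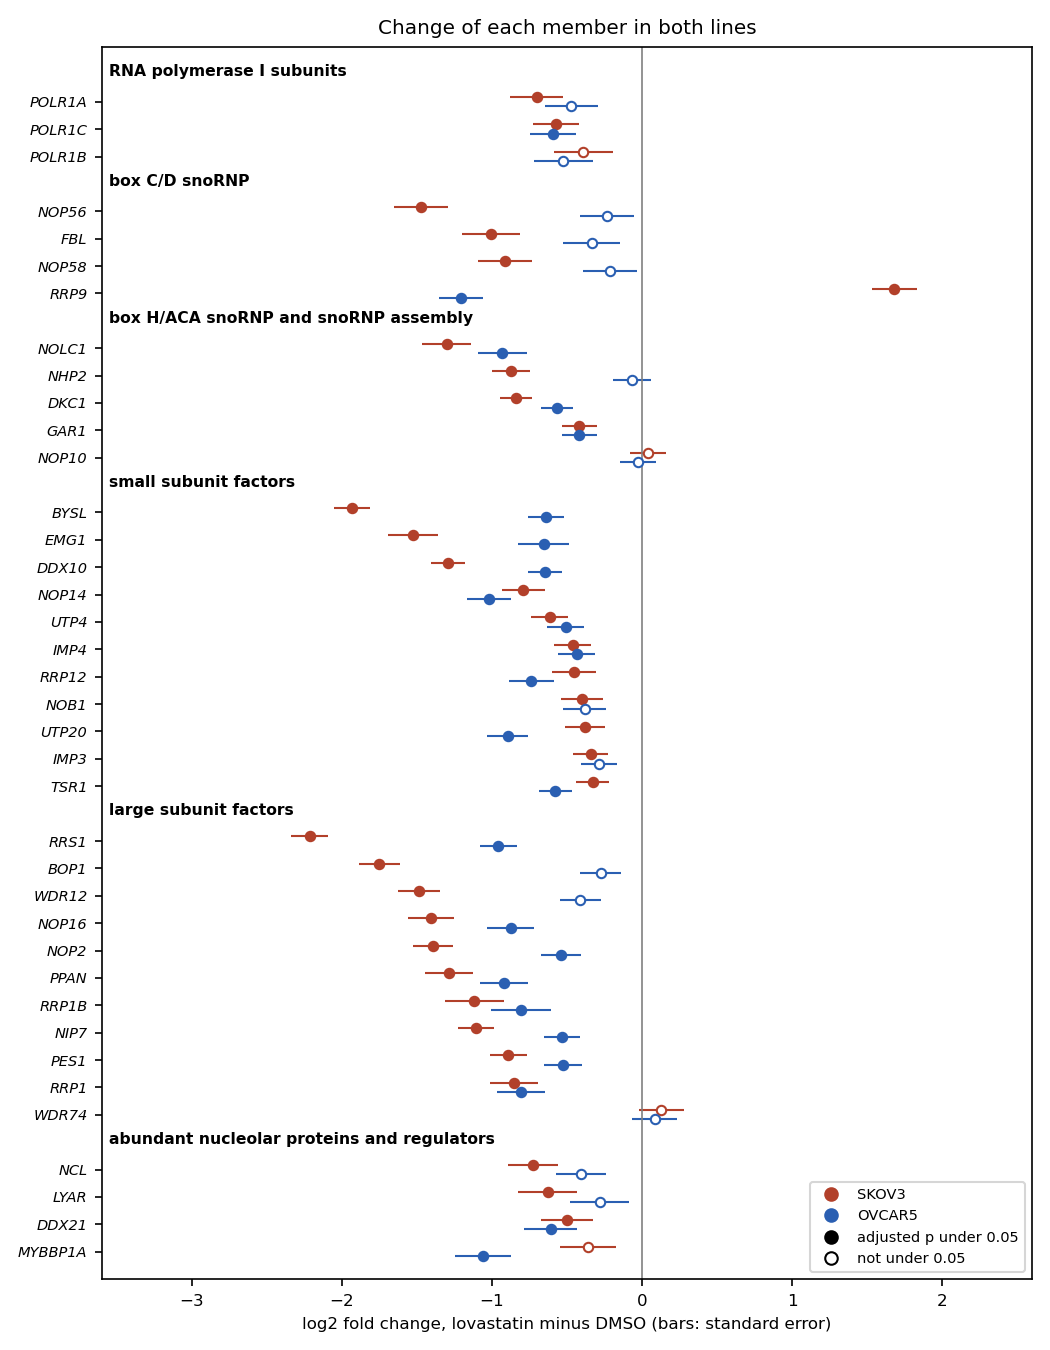
Log2 fold change of the 38 tested members (lovastatin minus DMSO, x axis) in SKOV3 (red) and OVCAR5 (blue), grouped by role, with standard errors as bars and filled points for an adjusted p under 0.05. Nearly all points lie left of 0; RRP9 has its SKOV3 point at 1.68 and its OVCAR5 point at -1.21, and the values of UTP20 and POLR1A in SKOV3 rest on arrays where the probe was not detected.

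RNA polymerase I stands at the start of the pathway. POLR1C, a subunit that it shares with RNA polymerase III, fell in both lines. Its level was 9.04 and 9.42 on the SKOV3 lovastatin arrays, against 9.73 and 9.87 on the SKOV3 DMSO arrays (change -0.57 ± 0.15, adjusted p = 0.014). In OVCAR5 it was 9.73 and 9.56 with lovastatin and 10.21 and 10.26 with DMSO (-0.59 ± 0.15, adjusted p = 0.027). The groups did not overlap in either line, and the changes of the lines were nearly equal. POLR1A, the largest subunit, read 4.97 and 4.80 with lovastatin and 5.57 and 5.60 with DMSO in SKOV3. No SKOV3 lovastatin array detected it, so it was at least 1.14-fold lower there (adjusted p = 0.011). In OVCAR5 it read 5.68 and 5.48 with lovastatin, detected on 1 of 2 arrays, and 5.80 and 6.30 with DMSO (-0.47 ± 0.18, adjusted p = 0.091). POLR1A was thus dim in both lines and called in SKOV3. POLR1B, which forms the catalytic core with POLR1A, read 5.40 and 5.46 with lovastatin (1 of 2 arrays detected) and 6.05 and 5.59 with DMSO in SKOV3. In OVCAR5 it read 6.51 and 6.40 with lovastatin and 6.75 and 7.21 with DMSO. It had changes of -0.39 ± 0.20 in SKOV3 (adjusted p = 0.13) and -0.53 ± 0.20 in OVCAR5 (adjusted p = 0.090), so neither passed, although no lovastatin array reached a DMSO array in either line.

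Of the 4 box C/D proteins, 3 fell in SKOV3 and were not called in OVCAR5 (17.3% of all genes), and RRP9 changed in both. The difference between the lines was called for NOP56 and RRP9, and not for NOP58 (-0.70 ± 0.25, adjusted p = 0.075) or FBL (-0.67 ± 0.27, adjusted p = 0.10). NOP56, a scaffold protein of these snoRNPs, read 11.14 and 10.63 in SKOV3 with lovastatin and 12.49 and 12.23 with DMSO, a change of -1.48 ± 0.18 (adjusted p = 0.00025). In OVCAR5 its arrays were 12.59 and 12.57 with lovastatin and 12.87 and 12.76 with DMSO, a change of -0.23 ± 0.18 that was not called (adjusted p = 0.40). Its other 2 probes gave changes of -1.72 and -1.90 in SKOV3 and of -0.50 and -0.75 in OVCAR5, where both passed at the level of probes (adjusted p = 0.036 and 0.0088). The fall in SKOV3 was thus seen on 3 of 3 probes, and the size in OVCAR5 depended on the probe. Its partner NOP58 read 10.61 and 10.13 with lovastatin and 11.43 and 11.15 with DMSO in SKOV3, and 11.18 and 11.33 with lovastatin and 11.45 and 11.49 with DMSO in OVCAR5. It fell by 0.91 ± 0.18 on the log2 scale in SKOV3 (adjusted p = 0.0032), with a change of -0.21 ± 0.18 in OVCAR5 (adjusted p = 0.44). FBL, the fibrillarin methyltransferase of the same particle, read 10.35 and 10.95 in SKOV3 with lovastatin and 11.55 and 11.77 with DMSO (-1.01 ± 0.19, adjusted p = 0.0027). Its OVCAR5 arrays, 12.10 and 12.02 with lovastatin and 12.41 and 12.39 with DMSO, did not overlap either, but the change of -0.34 ± 0.19 was not called (adjusted p = 0.25).

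RRP9 was the member that moved in opposite directions. It encodes a protein that binds the U3 snoRNA, the box C/D RNA that guides the early cuts of the precursor. In SKOV3 it read 8.37 and 8.35 with lovastatin and 6.67 and 6.69 with DMSO (1.68 ± 0.15, adjusted p = 4.6e-05). In OVCAR5 it read 7.25 and 6.85 with lovastatin and 8.19 and 8.32 with DMSO (-1.21 ± 0.15, adjusted p = 0.0011). With lovastatin the SKOV3 arrays stood close to the OVCAR5 DMSO arrays, and with DMSO they were the lowest of the 4 groups. The difference between the lines was 2.89 ± 0.21 (adjusted p = 0.00011). Of all tested genes 0.615% (69) were called higher in SKOV3 and lower in OVCAR5. All of this rests on 1 probe, since no other probe carries the symbol RRP9 here.

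Among the box H/ACA proteins, 3 of the 4 core subunits fell in SKOV3, where 23.9% of all genes fell. DKC1, the pseudouridine synthase dyskerin, had closely spaced arrays: 11.04 and 11.00 with lovastatin against 11.86 and 11.87 with DMSO in SKOV3, a change of -0.84 ± 0.11 (adjusted p = 0.00034). In OVCAR5 the DKC1 arrays were 11.34 and 11.32 with lovastatin and 11.90 and 11.90 with DMSO (-0.57 ± 0.11, adjusted p = 0.0073). The drop exceeded the spread of the arrays in both lines, and the DMSO level differed little between them. NHP2 fell by 0.87 ± 0.12 on the log2 scale in SKOV3 (adjusted p = 0.00057) and had a change of -0.07 ± 0.12 in OVCAR5 (adjusted p = 0.75), a pattern its 4 probes shared, at -1.03 to -0.76 in SKOV3 and -0.07 to -0.05 in OVCAR5. GAR1 fell by 0.42 ± 0.12 in each line (adjusted p = 0.017 in SKOV3 and 0.035 in OVCAR5), but both calls were lost under some alternative. Of its 4 probes, 1 missed the threshold in SKOV3 (-0.23, adjusted p = 0.15 over probes) and 2 in OVCAR5 (-0.35 and -0.46, adjusted p = 0.075 and 0.051 over probes).

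NOP10, the smallest H/ACA subunit, stayed near 0. Its arrays read 12.51 and 12.53 with lovastatin and 12.51 and 12.45 with DMSO in SKOV3, and 12.90 and 13.10 with lovastatin and 13.01 and 13.03 with DMSO in OVCAR5. The 95% confidence interval of the change ran from -0.23 to 0.32 in SKOV3 and from -0.30 to 0.25 in OVCAR5. NOLC1, a chaperone that carries snoRNPs and is also called Nopp140, was among the members that fell in both lines. It read 6.09 and 6.14 in SKOV3 with lovastatin and 7.65 and 7.18 with DMSO (-1.30 ± 0.16, adjusted p = 0.00031), and 8.32 and 8.42 in OVCAR5 with lovastatin and 9.22 and 9.38 with DMSO (-0.93 ± 0.16, adjusted p = 0.0054).

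**Figure D2:**
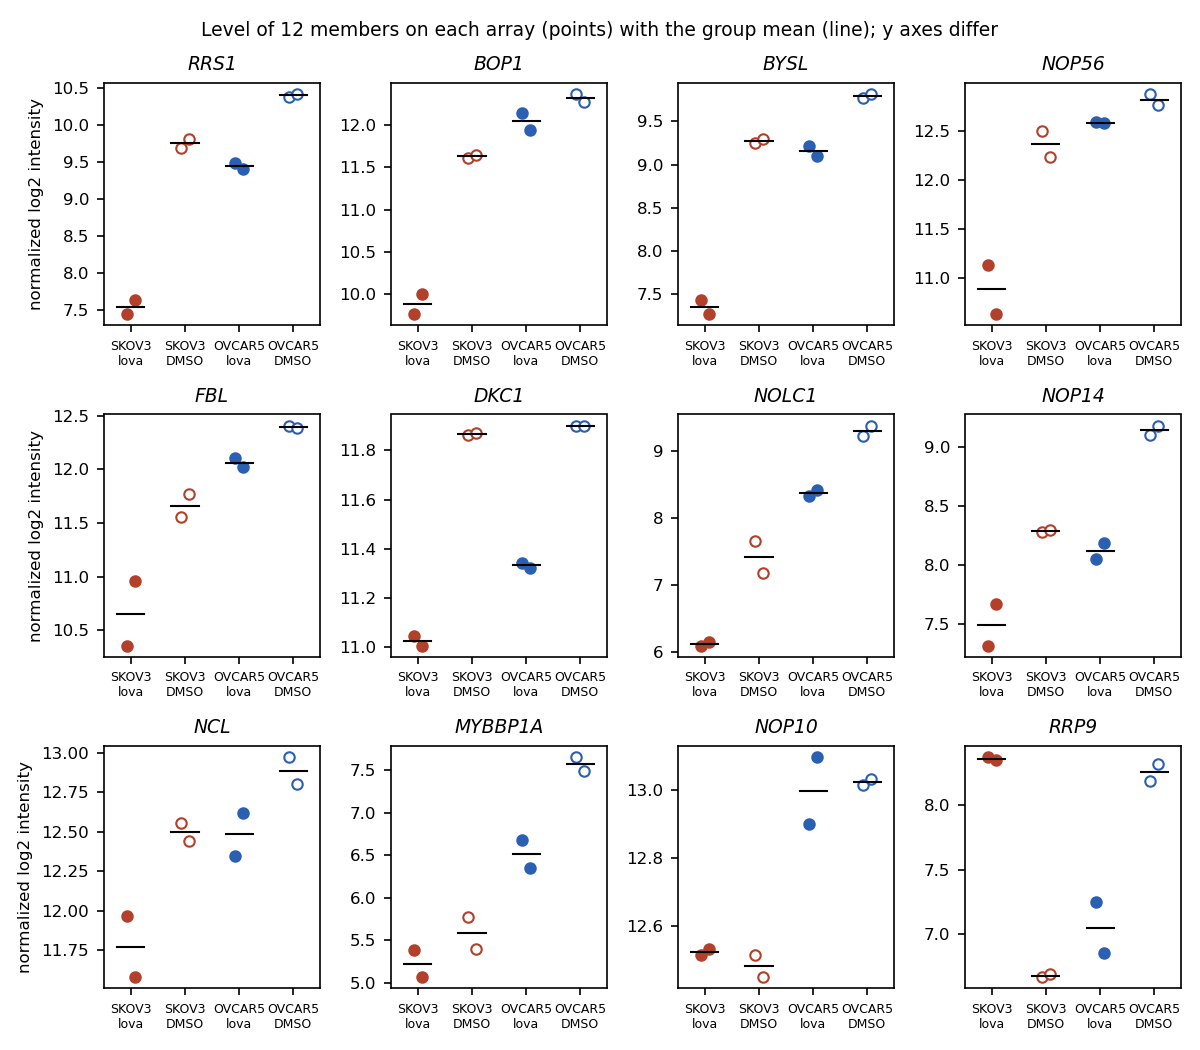
Normalized log2 intensity of 12 members on each array (points; filled for lovastatin, open for DMSO; red for SKOV3, blue for OVCAR5), with the group mean as a line; each panel has its own y axis. In RRS1, BOP1 and BYSL the SKOV3 lovastatin arrays lie far under the other 3 groups, NOP10 shows no gap between treatments, and RRP9 runs upward in SKOV3 and downward in OVCAR5.

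All 11 tested small subunit factors were called lower in SKOV3 and 9 of them in OVCAR5, while 23.9% and 9.29% of all genes fell. The 11 include UTP20, which no SKOV3 array detected, so its SKOV3 value compares readings near background. BYSL, or bystin, which takes part in late maturation of the small subunit, fell most: it read 7.43 and 7.26 with lovastatin and 9.26 and 9.30 with DMSO in SKOV3 (-1.93 ± 0.12, adjusted p = 7.3e-06). In OVCAR5 it read 9.22 and 9.10 with lovastatin and 9.77 and 9.82 with DMSO (-0.64 ± 0.12, adjusted p = 0.0070). The groups were well apart in both lines, by 3.81-fold of the means in SKOV3 and 1.56-fold in OVCAR5. EMG1, a methyltransferase of the small subunit RNA, read 7.76 and 8.25 with lovastatin and 9.45 and 9.61 with DMSO in SKOV3 (-1.53 ± 0.17, adjusted p = 0.00015). In OVCAR5 it fell by 0.66 ± 0.17 on the log2 scale (adjusted p = 0.026). The RNA helicase gene DDX10 had changes of -1.29 ± 0.12 in SKOV3 (adjusted p = 4.9e-05) and -0.65 ± 0.12 in OVCAR5 (adjusted p = 0.0056).

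Other small subunit factors had the larger value in OVCAR5, although no line difference was called for any of them. NOP14 read 7.32 and 7.67 with lovastatin and 8.28 and 8.29 with DMSO in SKOV3 (-0.79 ± 0.14, adjusted p = 0.0022). In OVCAR5 it read 8.05 and 8.19 with lovastatin and 9.10 and 9.18 with DMSO (-1.02 ± 0.14, adjusted p = 0.0020), and its second probe gave -0.74 and -0.88. UTP20, a very large scaffold protein, was detected on no SKOV3 array, so no fold is given for that line although its SKOV3 value is counted among the 33 falls. In OVCAR5 UTP20 read 5.82 and 5.88 with lovastatin and 6.68 and 6.81 with DMSO (-0.90 ± 0.13, adjusted p = 0.0025). RRP12, which serves in export of the small subunit, fell by 0.45 ± 0.15 on the log2 scale in SKOV3 and by 0.74 ± 0.15 in OVCAR5 (adjusted p = 0.033 and 0.0091). TSR1, a late assembly factor related to GTPases, fell by 0.33 ± 0.11 in SKOV3 and by 0.58 ± 0.11 in OVCAR5 (adjusted p = 0.035 and 0.0071).

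The remaining small subunit factors had modest changes of like size in both lines. UTP4, a processome subunit, fell by 0.61 ± 0.12 on the log2 scale in SKOV3 and by 0.51 ± 0.12 in OVCAR5 (adjusted p = 0.0035 and 0.020). IMP3 and IMP4 sit together on the U3 particle; IMP4 fell by 0.46 ± 0.13 in SKOV3 and 0.44 ± 0.13 in OVCAR5 (adjusted p = 0.015 and 0.039), and IMP3 had -0.34 ± 0.12 in SKOV3 (adjusted p = 0.039) and -0.29 ± 0.12 in OVCAR5 (adjusted p = 0.12). NOB1, the nuclease that makes the final cut at the end of the small subunit RNA, had -0.40 ± 0.14 in SKOV3 (adjusted p = 0.045) and -0.38 ± 0.14 in OVCAR5 (adjusted p = 0.088). Of the small subunit calls, those of IMP3, IMP4, NOB1, RRP12, TSR1 and UTP20 in SKOV3, and of BYSL, DDX10, EMG1, IMP4, RRP12, TSR1 and UTP4 in OVCAR5, are among those lost under some alternative.

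Of the 11 large subunit factors 8 fell at least 2-fold in SKOV3 and 0 in OVCAR5, against 8.50% and 1.53% of all genes. RRS1, which in yeast helps to place the 5S RNA particle in the large subunit, read 7.44 and 7.64 with lovastatin and 9.70 and 9.82 with DMSO in SKOV3. That is -2.22 ± 0.12 (adjusted p = 4.4e-06), or 4.65-fold lower. In OVCAR5 RRS1 read 9.48 and 9.41 with lovastatin and 10.39 and 10.42 with DMSO (-0.96 ± 0.12, adjusted p = 0.0013). The arrays of each pair of groups were far apart, and RRS1 was the lowest of all members in SKOV3.

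PES1, BOP1 and WDR12 form one complex that processes the precursor of the large subunit RNAs, and all 3 fell in SKOV3. Of all genes 23.9% fell there. BOP1 read 9.76 and 10.00 with lovastatin and 11.62 and 11.64 with DMSO in SKOV3 (-1.75 ± 0.14, adjusted p = 2.2e-05). In OVCAR5 BOP1 read 12.15 and 11.94 with lovastatin and 12.37 and 12.27 with DMSO (-0.28 ± 0.14, adjusted p = 0.18), lower on both arrays but not called. WDR12 read 7.97 and 7.95 with lovastatin and 9.28 and 9.61 with DMSO in SKOV3 (-1.49 ± 0.14, adjusted p = 6.1e-05), and had -0.41 ± 0.14 in OVCAR5 (adjusted p = 0.069). PES1 had a SKOV3 change of -0.89 ± 0.12 (adjusted p = 0.00052), and was the only one of the complex called in OVCAR5, at -0.53 ± 0.12 (adjusted p = 0.018). Whether PES1 differs from its partners was not tested.

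Most of the other large subunit genes fell in both lines, as 5.80% of all genes did. NOP2, a methyltransferase of the large subunit RNA, read 8.51 and 8.62 with lovastatin and 10.05 and 9.88 with DMSO in SKOV3 (-1.39 ± 0.13, adjusted p = 6.9e-05), and fell by 0.54 ± 0.13 on the log2 scale in OVCAR5 (adjusted p = 0.023). Its 3 detected probes ranged from -1.68 to -1.14 in SKOV3 and from -1.05 to -0.54 in OVCAR5. NOP16, a nucleolar protein known as a MYC target, read 7.21 and 7.51 with lovastatin and 8.63 and 8.91 with DMSO in SKOV3 (-1.41 ± 0.15, adjusted p = 0.00014). In OVCAR5 NOP16 read 10.44 and 10.34 with lovastatin and 11.34 and 11.19 with DMSO (-0.88 ± 0.15, adjusted p = 0.0052). Both genes showed no overlap of treatments in either line. PPAN, the homolog of yeast Ssf1, fell by 1.28 ± 0.16 in SKOV3 and by 0.92 ± 0.16 in OVCAR5 (adjusted p = 3e-04 and 0.0051). NIP7 fell by 1.10 ± 0.12 and 0.53 ± 0.12 in SKOV3 and OVCAR5 (adjusted p = 0.00014 and 0.015).

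The paralogs RRP1 and RRP1B, both homologs of one yeast processing factor, fell alike. RRP1 had -0.85 ± 0.16 in SKOV3 and -0.81 ± 0.16 in OVCAR5 (adjusted p = 0.0025 and 0.0084), and RRP1B had -1.12 ± 0.20 and -0.81 ± 0.20 (adjusted p = 0.0019 and 0.021). WDR74, a factor that works with a remodelling ATPase on the large subunit, was the exception. It read 6.71 and 7.09 with lovastatin and 6.74 and 6.80 with DMSO in SKOV3, and 6.81 and 6.63 with lovastatin and 6.61 and 6.66 with DMSO in OVCAR5. The arrays overlapped in both lines, and the 95% confidence intervals of the change ran from -0.22 to 0.47 in SKOV3 and from -0.26 to 0.43 in OVCAR5.

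The abundant nucleolar proteins changed moderately. NCL, or nucleolin, read 11.97 and 11.58 with lovastatin and 12.56 and 12.44 with DMSO in SKOV3 (-0.73 ± 0.17, adjusted p = 0.0070). Its OVCAR5 arrays were 12.34 and 12.62 with lovastatin and 12.97 and 12.80 with DMSO (-0.40 ± 0.17, adjusted p = 0.12). The second NCL probe gave -1.26 in SKOV3 and -0.89 in OVCAR5, and passed there at the level of probes (adjusted p = 0.024), so the OVCAR5 call depended on the probe. DDX21, a helicase that links RNA polymerase I activity with processing, fell by 0.50 ± 0.17 on the log2 scale in SKOV3 and by 0.61 ± 0.17 in OVCAR5 (adjusted p = 0.042 and 0.038), with both calls among those lost under some alternative. LYAR, a zinc finger protein of the nucleolus, fell by 0.63 ± 0.19 in SKOV3 (adjusted p = 0.026) and had -0.28 ± 0.19 in OVCAR5 (adjusted p = 0.34).

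MYBBP1A, a nucleolar protein known to restrain ribosomal RNA synthesis, had its call in OVCAR5 alone. There it read 6.68 and 6.35 with lovastatin and 7.66 and 7.49 with DMSO (-1.06 ± 0.19, adjusted p = 0.0050). In SKOV3 it was near the limit of detection, at 5.38 and 5.06 with lovastatin and 5.77 and 5.40 with DMSO, detected on 1 of 2 arrays of each group, and its change was -0.36 ± 0.19 (adjusted p = 0.14). The difference between the lines, 0.70 ± 0.26, was not called (adjusted p = 0.082).

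The next comparison asked which of these changes differed between the lines. Of 38 members 10 had a lower change in SKOV3 than in OVCAR5 and 1 a higher one, while 14.5% and 12.8% of all genes were called in these directions. The 11 calls are 28.9% of the members, near the 27.3% of all genes called for this difference. The median difference of the members was -0.29, and it was -0.16 without replicate 2 of SKOV3 lovastatin, against -0.02 over all genes in the full fit. The count of 10 was 6 without replicate 1 of SKOV3 DMSO and 6 without replicate 1 of OVCAR5 lovastatin. BOP1 had the largest gap on the lower side, at -1.47 ± 0.19 (adjusted p = 0.0011), then BYSL at -1.29 ± 0.17 (adjusted p = 0.0011), RRS1 at -1.26 ± 0.17 (adjusted p = 0.0015), NOP56 at -1.24 ± 0.25 (adjusted p = 0.0087) and WDR12 at -1.08 ± 0.20 (adjusted p = 0.0053). Of the 11 called, 5 were large subunit factors, 3 small subunit factors, 2 box C/D proteins and 1 an H/ACA protein. For the 27 others a difference was not shown; GAR1, for example, had an interval of -0.38 to 0.38 and POLR1C one of -0.48 to 0.52.

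**Figure D3:**
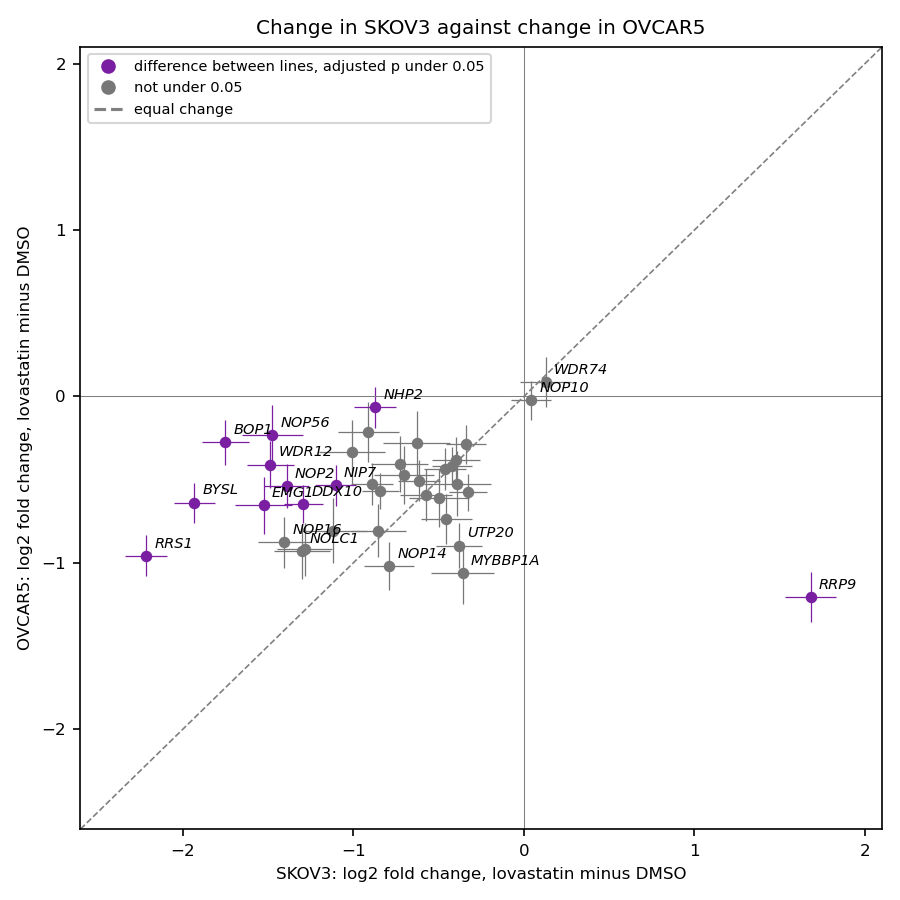
Log2 fold change (lovastatin minus DMSO) of each tested member in SKOV3 (x axis) and OVCAR5 (y axis) with standard errors as bars; the dashed line marks equal change, and purple points had a line difference with an adjusted p under 0.05. The 10 purple points left of the line include RRS1, BYSL and BOP1, and RRP9 lies alone at 1.68 and -1.21.

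Without the drug the lines also differed. With DMSO 31 of 38 members were lower in SKOV3 than in OVCAR5 and 0 higher, while 29.6% of all genes were lower and 32.3% higher (61.9% called). In 36 members both SKOV3 arrays lay under both OVCAR5 arrays and in 1, WDR74, above them, against 40.7% and 42.8% of all genes (83.5% in either direction). The median difference, SKOV3 minus OVCAR5, was -0.78 over the members and 0.01 over all genes. RRP12 had the largest one, with 6.97 and 7.08 in SKOV3 and 9.58 and 9.53 in OVCAR5 (-2.53 ± 0.15, adjusted p = 1.9e-06). NOP16 followed with 8.63 and 8.91 in SKOV3 and 11.34 and 11.19 in OVCAR5 (-2.50 ± 0.15, adjusted p = 2.6e-06), and MYBBP1A with 5.77 and 5.40 in SKOV3 and 7.66 and 7.49 in OVCAR5 (-1.99 ± 0.19, adjusted p = 2.9e-05). In each of these 3 genes both SKOV3 arrays lay far under both OVCAR5 arrays. NOLC1 and EMG1 were lower in SKOV3 by over 3-fold too, at -1.88 ± 0.16 and -1.81 ± 0.17 (adjusted p = 2e-05 and 2.9e-05).

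The 7 members not called between the lines in DMSO were DKC1, NOP58, NOP56, UTP4, RRP1B, NCL and WDR74. DKC1 had a difference of -0.04 ± 0.11 with a 95% confidence interval of -0.28 to 0.21, and WDR74 was the one member with a positive value, 0.14 ± 0.15 (adjusted p = 0.45). The DMSO arrays also enter the lovastatin changes, so no relation between the starting level and the change of a member is given. By group, the median level of the 38 members was 8.34 in SKOV3 lovastatin, 9.58 in SKOV3 DMSO, 10.02 in OVCAR5 lovastatin and 10.69 in OVCAR5 DMSO.

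Many further genes of the same pathway, taken from lists of related genes that are no members, also fell. Of 134 tested genes for other assembly factors, polymerases I and III, the exosome and RNase MRP, 76 fell and 8 rose in SKOV3, and 55 fell and 1 rose in OVCAR5. Over all genes 23.9% fell and 26.6% rose in SKOV3, and 9.29% fell and 13.5% rose in OVCAR5. In both lines 42 of the 134 fell (31.3%), against 5.80% of all genes. Their median change was -0.50 in SKOV3 and -0.43 in OVCAR5, against 0.03 and 0.01 over all genes. Among other small subunit factors 28 of 38 fell in SKOV3 and 20 in OVCAR5, and 0 rose in either (medians -0.62 and -0.50). NOL6, a processome protein, fell by 1.84 ± 0.13 in SKOV3 and by 1.05 ± 0.13 in OVCAR5 on the log2 scale (adjusted p = 1.3e-05 and 0.0010). NAT10, which acetylates the small subunit RNA, fell by 1.71 ± 0.15 and 0.79 ± 0.15 in SKOV3 and OVCAR5 (adjusted p = 3.7e-05 and 0.0063).

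Among other large subunit factors 18 of 41 fell and 5 rose in SKOV3, and 21 fell and 0 rose in OVCAR5 (medians -0.31 and -0.49). The 5 that rose in SKOV3, where 26.6% of all genes rose, were NMD3, RSL24D1, DDX51, EFL1 and ZNF622, named after their values were seen. MRTO4, which resembles the ribosomal stalk protein P0, fell by 1.96 ± 0.17 in SKOV3 and by 0.70 ± 0.17 in OVCAR5 (adjusted p = 4.4e-05 and 0.022). NLE1 had the larger value in OVCAR5, at -1.25 ± 0.12 there and -0.76 ± 0.12 in SKOV3 (adjusted p = 0.00032 and 0.0010). In the list of other RNA polymerase I genes 10 of 17 fell in SKOV3 and 5 in OVCAR5, and 0 rose (medians -0.49 and -0.24). Of all genes 23.9% fell in SKOV3 and 9.29% in OVCAR5. POLR1G, a subunit of that enzyme, fell by 1.65 ± 0.18 in OVCAR5 and by 1.47 ± 0.18 in SKOV3, where 1 of 2 lovastatin arrays detected it (adjusted p = 6e-04 and 0.00025).

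Of 11 tested nuclear exosome genes, which trim the precursor RNAs, 10 fell in SKOV3 and 4 in OVCAR5 (medians -0.81 and -0.44), while 23.9% and 9.29% of all genes fell. EXOSC2 read 6.82 and 7.12 with lovastatin and 9.19 and 9.06 with DMSO in SKOV3 (-2.16 ± 0.14, adjusted p = 7.6e-06), and fell by 0.97 ± 0.14 in OVCAR5 (adjusted p = 0.0019). Of 8 proteins of RNase MRP and RNase P 4 fell in SKOV3 and 2 in OVCAR5 (medians -0.52 and -0.21). POP5, a protein of both enzymes, fell by 1.80 ± 0.17 on the log2 scale in SKOV3 (adjusted p = 6.1e-05). RNA polymerase III genes were mixed, with 6 of 19 lower and 3 higher in SKOV3 and 3 lower and 1 higher in OVCAR5 (medians -0.27 and -0.20). Calls in either direction made up 47.4% of that list in SKOV3 and 21.1% in OVCAR5, near the 50.5% and 22.8% of all genes. POLR3G fell by 2.12 ± 0.13 in SKOV3, detected on 1 of 2 lovastatin arrays, and by 0.70 ± 0.13 in OVCAR5 (adjusted p = 6.1e-06 and 0.0058).

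**Figure D4:**
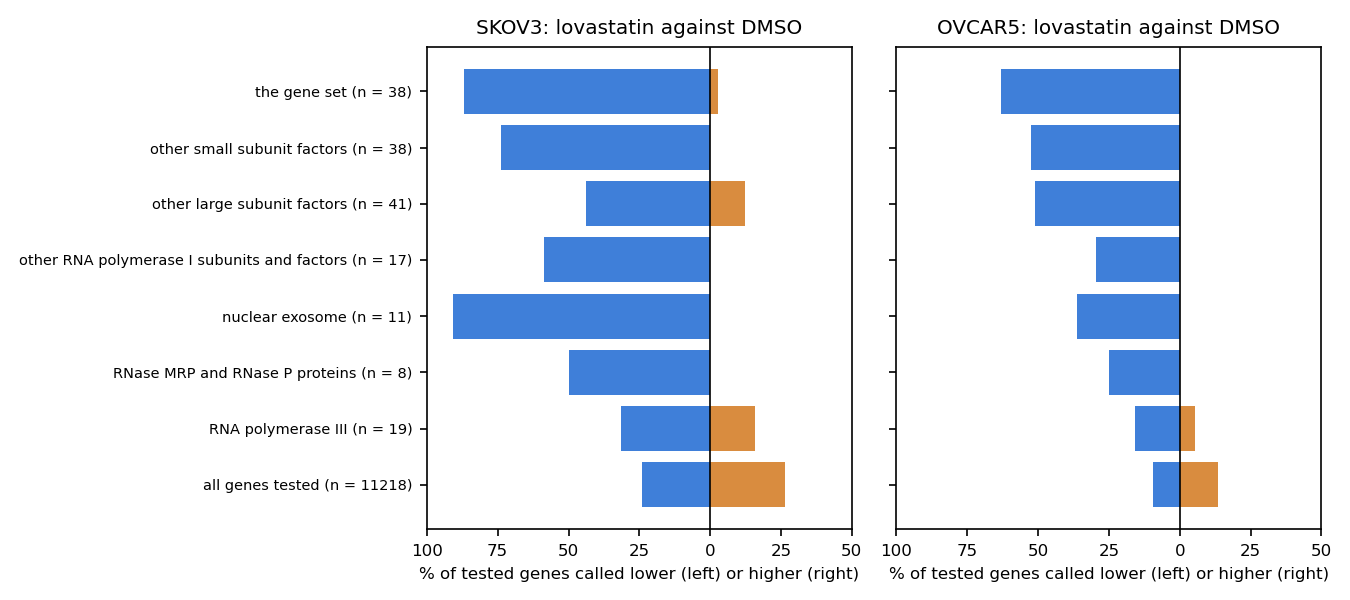
Share of tested genes called lower (blue, leftward) or higher (orange, rightward) with lovastatin at an adjusted p under 0.05 in SKOV3 and in OVCAR5, for the gene set, 6 lists of related genes and all 11218 tested genes. The gene set and the exosome list reach furthest to the lower side in SKOV3, while all genes are split at 23.9% lower and 26.6% higher.

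MYC, whose product binds the E-box searched in the promoters, was measured beside the members. In SKOV3 it read 8.28 and 8.53 with lovastatin and 11.20 and 11.39 with DMSO (-2.89 ± 0.14, adjusted p = 2.5e-06). In OVCAR5 it read 11.91 and 11.80 with lovastatin and 11.92 and 11.85 with DMSO, a change of -0.03 ± 0.14 with a 95% confidence interval of -0.34 to 0.29 (adjusted p = 0.92). The difference between the lines was -2.86 ± 0.19 (adjusted p = 7.9e-05), and MYC was called lower in SKOV3 and not in OVCAR5. MAX, its partner, was called in neither line (0.29 ± 0.19 in SKOV3 and -0.24 ± 0.19 in OVCAR5, adjusted p = 0.24 and 0.41).

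MXD1, MNT and MXD4, which compete with MYC for MAX, rose in both lines. MXD1 read 8.70 and 8.68 with lovastatin and 5.40 and 4.93 with DMSO in SKOV3 (3.53 ± 0.20, adjusted p = 4.7e-06), and 7.13 and 7.03 with lovastatin and 5.50 and 5.02 with DMSO in OVCAR5 (1.82 ± 0.20, adjusted p = 0.00063). Only 1 of 2 DMSO arrays detected it in each line. MNT rose by 2.15 ± 0.20 in SKOV3 and by 1.01 ± 0.20 in OVCAR5 (adjusted p = 6e-05 and 0.0088). MXD4 rose by 0.88 ± 0.14 in SKOV3 and by 2.26 ± 0.14 in OVCAR5 (adjusted p = 0.00096 and 3.8e-05). MXD3 went opposite ways, at -1.52 ± 0.17 in SKOV3 and 0.60 ± 0.17 in OVCAR5 (adjusted p = 0.00014 and 0.034). MXI1, a further gene of this network, was not called in SKOV3. In OVCAR5 it rose by at least 1.04-fold, with no DMSO array detecting it. Of the 9 tested genes of this network 3 rose and 2 fell in SKOV3, and 5 rose and 1 fell in OVCAR5 (medians 0.12 and 0.60), while 26.6% of all genes rose and 23.9% fell in SKOV3 and 13.5% rose and 9.29% fell in OVCAR5, so the SKOV3 counts were near those of all genes. MAX, MXD3 and MXI1 were named after their values were seen. The 1 gene of the network that fell in OVCAR5 is not among those named. The lowest change of the network there was -0.71. The part of these genes in the changes of the members was not tested.

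**Figure D5:**
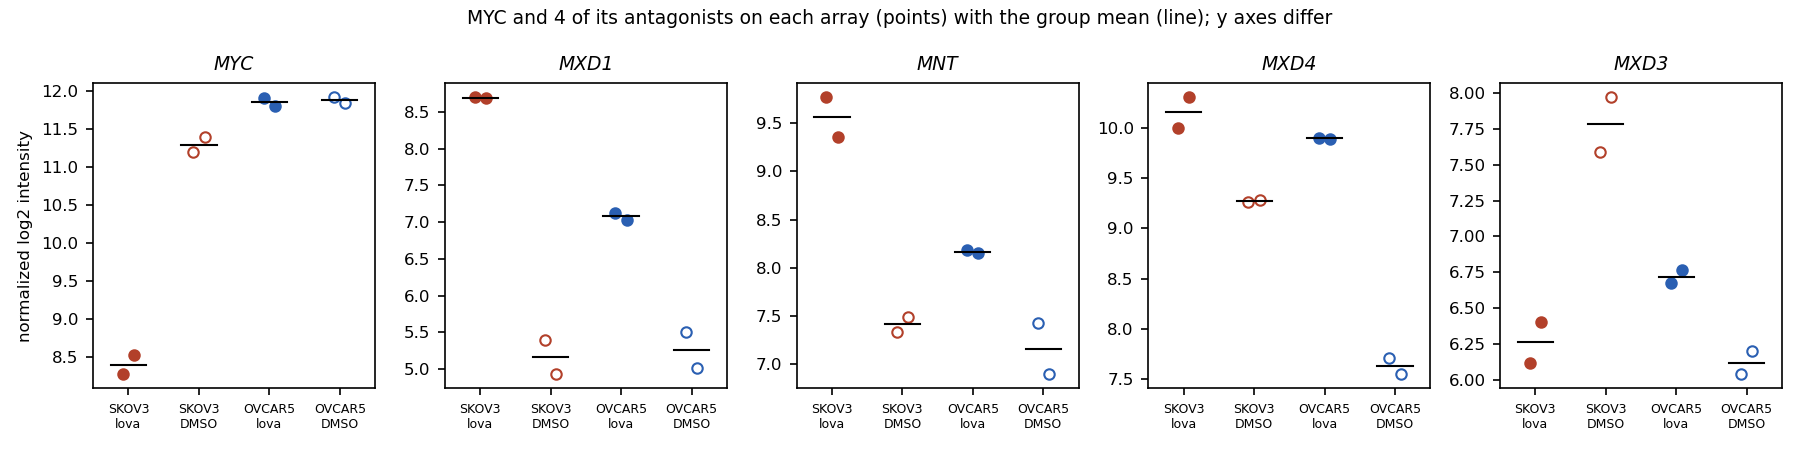
Normalized log2 intensity of MYC, MXD1, MNT, MXD4 and MXD3 on each array (points; filled for lovastatin, open for DMSO; red for SKOV3, blue for OVCAR5), with the group mean as a line; each panel has its own y axis. MYC lies at 8.28 and 8.53 in SKOV3 with lovastatin and above 11 in the other 3 groups, while MXD1, MNT and MXD4 are higher with lovastatin in both lines.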

How the data were processed

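RNA of 8 arrays (4 groups of 2) was measured on beadchips. The authors deposited mean bead intensity per probe, not normalized per the file headers, with a detection p-value per probe and array. The deposited log2 table was made with limma, per the submitters' processing notes (version not given in the sources used here); 99.997% of its SKOV3 and 99.987% of its OVCAR5 values lay within 0.01 of neqc run on each line alone, so it was taken as log2, uncentred and normalized within a line. It has 1 missing value.

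The main values came from the intensities of all 8 arrays by neqc (offset 16) in limma 3.58.1 and R 4.3.3. Probes with 1 gene symbol (30074 of 30113 matched a current RefSeq record) and detection p-values below 0.01 on 2 or more arrays entered (14851), and each gene took its brightest kept probe. Of the members, 12 had several kept probes (56 probes in all). Limma was fitted to 4 group means; 4 contrasts were tested, and each kept probe was also fitted on its own. Where no array of a group detected a gene, the fold is a bound against the lowest detected signal of each array. Arrays with the same replicate number deviated together at r = 0.23 in SKOV3 and -0.03 in OVCAR5, so the numbers were not taken as pairs. The steps were tested on simulated data. Figures used matplotlib 3.10.9 in Python 3.11.15. The number of arrays limits the precision.

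Values on every array are given by rule for called members: the 8 lowest and up to 4 highest in SKOV3, up to 4 each way in OVCAR5, 5 lowest and 3 highest for the difference, 3 each way in DMSO, any whose probes disagree in sign, and always POLR1A, POLR1B, POLR1C, NOP56, NOP58, FBL, DKC1, NCL and NPM1 (undetected). Those of NOLC1, NOP10, UTP20 and WDR74 were added after their values were seen. From each related list up to 3 called genes with the largest change in a line, and MYC, were eligible. The members and lists were chosen with earlier results of these data known. Alternatives covered normalization, background, the filter on dim probes, the probes of a gene, single arrays left out, the replicate number as a block, the prior and each line alone.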

Additional observations from a re-analysis of the deposited data

Results flagged for a closer look

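The lovastatin change of 11 members differed between the lines by the test of the difference itself (limma, Benjamini-Hochberg over 11218 genes; these are 28.9% of the members, near the 27.3% of all genes). In 10 of them the change in SKOV3 minus that in OVCAR5 was below 0 on the log2 scale. It was -1.47 for BOP1, -1.29 for BYSL, -1.26 for RRS1, -1.24 for NOP56, -1.08 for WDR12, -0.87 for EMG1, -0.85 for NOP2, -0.81 for NHP2, -0.65 for DDX10 and -0.57 for NIP7. Of these, BYSL, RRS1, EMG1, NOP2, DDX10 and NIP7 fell in both lines, and BOP1, NOP56, WDR12 and NHP2 were called lower in SKOV3 and not in OVCAR5. RRP9 was the one with opposite signs, at 2.89. The calls for BOP1, BYSL, RRS1, NOP56, WDR12, NHP2 and RRP9 held under each of 16 alternatives in which they were tested, and those for DDX10, EMG1, NIP7 and NOP2 were lost under at least 1.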

How the results depend on the processing

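Of 34 calls among members in SKOV3, 23 held under each of 17 alternatives, as did 8 of 24 in OVCAR5 (RRP9, NOLC1, UTP20, NOP14, RRS1, NOP16, PPAN and MYBBP1A), 7 of 11 for the line difference and 26 of 31 between the lines in DMSO, counting a gene only where it was tested. No called member turned its sign. With each line's 4 arrays fitted alone, 24 members fell in SKOV3 and 25 in OVCAR5. In SKOV3 the number of falls was 23 to 28 and the number of rises 1 with each array left out in turn, and the median change was -0.63 without background correction. In OVCAR5 the number of falls was lower by a factor above 1.5 with any 1 OVCAR5 array left out. Fewer of all genes were called in these fits too. The members' median change was then -0.58 to -0.51. With median scaling 13 members fell, and the median of all genes moved to 0.10. For the line difference the lower calls were 6 to 12 and the median -0.30 to -0.16 with an array left out; without background correction there were 3 higher calls and a median of -0.075, and with the replicate block 2 higher calls and 12 lower. Counts from the block in SKOV3 (31), OVCAR5 (22) and DMSO (31) stayed within 1.5 times. In DMSO 1 member was higher in SKOV3 with the authors' deposited log2 table, where each line was normalized apart, and 1 with median scaling, which moved the median of all genes by 0.21. The values that turned sign were 8, none of them called: NOP10 in SKOV3 (-0.081 with median scaling, -0.014 as the mean of its probes) and in OVCAR5 (-0.12 to 0.074 with an array left out), WDR74 in SKOV3 (-0.062 to 0.32) and OVCAR5 (down to -0.0048) with an array left out, and RRP1B between the lines in DMSO (0.17 with the authors' table, 0.17 with median scaling, 0.0017 with an array left out). The cause of these shifts was not tested. Signal over background limits UTP20, POLR1A and MYBBP1A in SKOV3.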
